A study of Homo sapiens with 6 samples.

Results

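Poly(A) RNA of LNCaP cells, a long-established line from a human prostate cancer that responds to androgen, was sequenced in 6 samples. The samples were split by expression into 2 states that crossed the labelled groups. In every sample cells had been sorted by ALDEFLUOR, whose dye turns fluorescent where aldehyde dehydrogenase acts on it. ALDH high 1, 2 and 3 are the 10% of cells with the highest signal and ALDH low 1, 2 and 3 the 10% with the lowest. All 6 samples were grown in RPMI medium with 10% fetal bovine serum, and the labels name no genetic change or drug for any of them. The labels leave it unsaid whether samples of 1 group were sorted from different cultures, or in which batch a library was made.

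The states were defined by 1 gene. Libraries in which MAF was under 1000 normalized reads formed the MAF-low side, namely ALDH high 1, ALDH high 3 and ALDH low 2, and those in which it was over 1000 formed the MAF-high side, namely ALDH high 2, ALDH low 1 and ALDH low 3. Normalized reads are read counts scaled by a size factor for each library. Each side thus held 3 of the 6 libraries and both labels. The highest library under the limit had 319 normalized reads of MAF and the lowest library over it had 1792. The 16000 genes of the table were compared between the sides. Because the split was found from expression in these same libraries, every difference between the sides is a description, no p-value is attached to it, and it is not a difference between ALDH high and ALDH low cells. A batch of culture, sorting or library preparation cannot be told apart from the side.

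MAF encodes a basic leucine zipper transcription factor of the large MAF family, which binds DNA at MAF recognition elements and acts in lens, immune and endocrine lineages. LNCaP cells are of luminal prostate origin: their growth and their secretory genes depend on androgen, which also drives lipid and cholesterol synthesis in them. Long-cultured lines such as LNCaP are known to hold subpopulations that differ in gene expression and karyotype.

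Promoters of genes that mark the sides are shown so that the MAF half-site, the core of a MAF recognition element, can be read in them. Each promoter runs from 250 bases before to 50 bases after the gene's start (RefSeq, GRCh38.p14, 5′ to 3′ on the gene's strand), and capitals mark TGCTGA or, where the match is on the other strand, TCAGCA. The genes are MAF itself (chr16:79600688-79600987, minus strand), SOD3 (chr4:24795323-24795622, plus strand), DDC (chr7:50565356-50565655, minus strand) and BMP5 (chr6:55875541-55875840, minus strand).
MAF: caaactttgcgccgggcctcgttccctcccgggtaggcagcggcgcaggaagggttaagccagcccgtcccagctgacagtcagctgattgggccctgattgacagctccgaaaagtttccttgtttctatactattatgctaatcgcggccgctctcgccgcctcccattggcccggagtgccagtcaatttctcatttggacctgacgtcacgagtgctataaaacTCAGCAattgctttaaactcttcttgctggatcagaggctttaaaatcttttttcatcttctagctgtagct
SOD3: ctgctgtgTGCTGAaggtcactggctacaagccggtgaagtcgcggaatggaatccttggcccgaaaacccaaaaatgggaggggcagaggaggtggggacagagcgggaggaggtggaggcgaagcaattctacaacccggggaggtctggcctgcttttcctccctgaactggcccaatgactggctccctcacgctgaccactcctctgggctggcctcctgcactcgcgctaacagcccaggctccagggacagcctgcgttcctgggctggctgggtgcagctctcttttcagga
DDC: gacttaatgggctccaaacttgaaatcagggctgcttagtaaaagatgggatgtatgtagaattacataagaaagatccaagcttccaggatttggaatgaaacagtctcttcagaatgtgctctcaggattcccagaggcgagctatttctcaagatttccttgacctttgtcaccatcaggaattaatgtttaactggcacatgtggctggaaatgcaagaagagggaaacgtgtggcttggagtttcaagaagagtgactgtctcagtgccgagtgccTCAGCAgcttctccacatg
BMP5: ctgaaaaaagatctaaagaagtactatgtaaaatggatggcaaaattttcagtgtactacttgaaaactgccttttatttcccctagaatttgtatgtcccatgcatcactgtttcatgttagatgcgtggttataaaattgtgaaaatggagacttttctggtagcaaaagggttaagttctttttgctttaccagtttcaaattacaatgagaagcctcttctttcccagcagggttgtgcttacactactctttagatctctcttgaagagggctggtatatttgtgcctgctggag
MAF, SOD3 and DDC hold 1 match each, and BMP5 holds none. Of the 19 marker or widest-gap genes with a promoter in the table, 6 hold a match, so the promoters shown hold it more often than the set they come from. MAF and SOD3 were higher on the MAF-high side, while DDC and BMP5 were higher on the MAF-low side. Over all 10592 table genes whose promoter was matched by symbol, the 6-letter motif was present on either strand in 12.5%. Among genes at least 2-fold apart it was present in 18.9% of 122 promoters of the MAF-high side and in 16.7% of 270 of the MAF-low side. The letters AGAACA, a half-site of the androgen receptor, were searched in the same way on both strands, with no promoter removed for holding both motifs. They were in 8.80%, 14.8% and 11.1% of the same 3 sets. Both motifs were thus somewhat more frequent in both sets than over all genes, and a match describes letters, not binding.

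The 6 genes that mark the split are plotted for each library. In the order ALDH high 1, ALDH high 3 and ALDH low 2, which is kept below for the MAF-low side, MAF had 319, 307 and 264 normalized reads. In the order ALDH high 2, ALDH low 1 and ALDH low 3, kept for the MAF-high side, it had 2288, 1792 and 1792. The difference between the side means of log2(normalized reads + 1), MAF-high minus MAF-low, was 2.71, a 6.55-fold difference, and the single ALDH low library of the MAF-low side had the lowest value of all. GSTA1, a glutathione transferase, had 485, 484 and 429 against 1506, 2271 and 2301. PLPP1, a phosphatase of lipid phosphates at the cell surface, had 879, 825 and 869.7 against 3429, 3367 and 3972. Both were over 2-fold higher in every MAF-high library than in any MAF-low library.

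The other 3 markers ran the other way. BMP5, a secreted bone morphogenetic protein, had 792, 745 and 758 normalized reads on the MAF-low side and 77.6, 101 and 93.2 on the MAF-high side. DDC, the decarboxylase that makes dopamine and serotonin and a binding partner of the androgen receptor, had 1046, 1136 and 1022 against 239, 269 and 333. It overlaps FIGNL1 on the same strand, so that some reads could belong to either gene. NEAT1, the long noncoding RNA that builds paraspeckles, had 30580.3, 32286 and 23818 against 12348, 9200.3 and 8679, a difference of −1.53. Its MAF-low values spread more than those of BMP5, with ALDH low 2 the lowest of the 3, but the sides did not overlap.

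**Figure D1:**
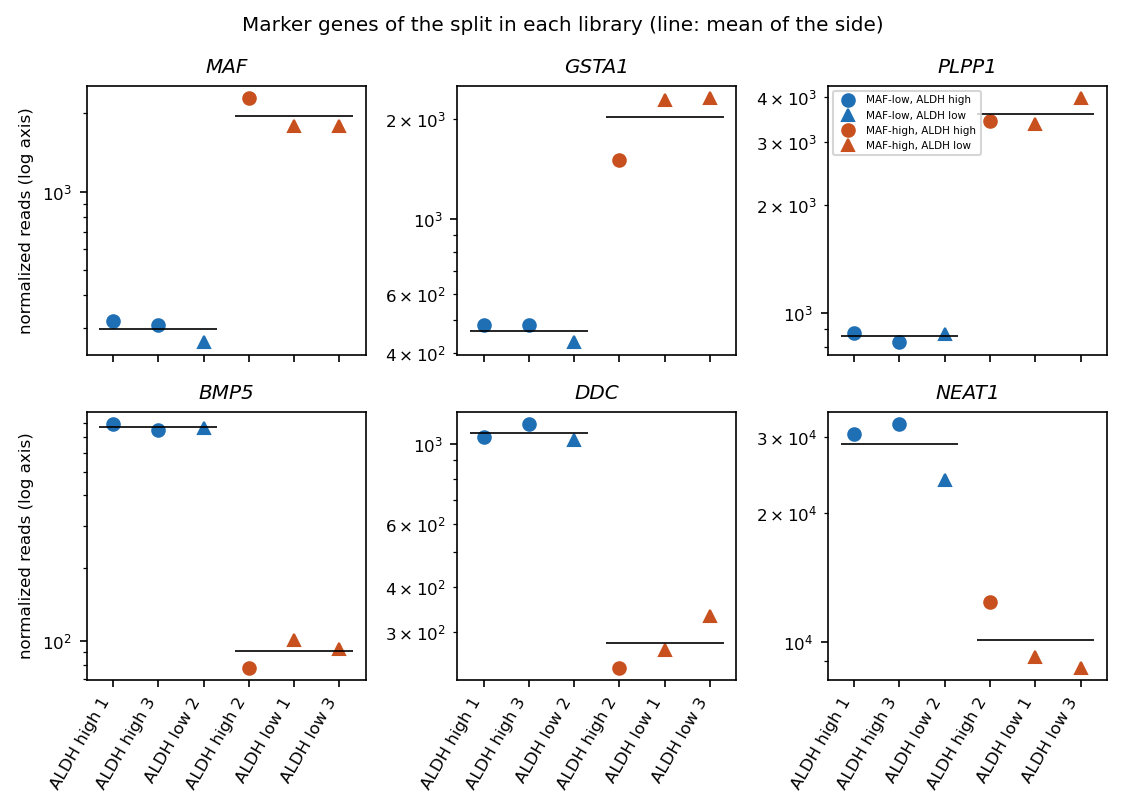
Normalized reads (log axis) of 6 marker genes in each of the 6 libraries; circles are ALDH high, triangles ALDH low, blue the MAF-low and orange the MAF-high side, and lines are side means. MAF, GSTA1 and PLPP1 are higher in all 3 MAF-high libraries and BMP5, DDC and NEAT1 in all 3 MAF-low libraries, whichever label a library carries.

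KLK3, which encodes prostate-specific antigen, did not separate the sides. Its normalized reads were 82289, 88599.6 and 78309 on the MAF-low side and 82340.3, 83427 and 101683 on the MAF-high side, a difference of 0.10. The luminal genes KRT8 and FOXA1 were present in every library, with differences of 0.03 and 0.06 and overlapping sides. HOXB13, a homeobox factor of the prostate, was slightly higher on the MAF-high side (0.21) without overlap. Of the 20 luminal markers listed, 17 were in the table, 2 were higher without overlap on the MAF-high side and 3 on the MAF-low side, and 1 was called in each direction, the keratin KRT19 on the MAF-high side (1.32) and the surface protein CD24 on the MAF-low side (−1.01).

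Over all 16000 genes, 1919 (12.0%) were higher in all 3 MAF-high libraries than in any MAF-low library, and 2175 (13.6%) were higher in all 3 MAF-low libraries. Genes that also differed at least 2-fold are referred to as called: 266 (1.66%) were higher on the MAF-high side and 510 (3.19%) on the MAF-low side. Scaling the libraries to their ERCC spike-in RNAs instead turned this split to 395 and 321, with the median of all genes at 0.19 rather than 0.01. It turned the non-overlapping counts to 1577 on the MAF-high side and 668 on the MAF-low side. Most called genes were of low level: their median mean was 41.7 and 35.6 normalized reads, against 495 over all genes. The table's lowest mean over the 6 libraries was 9.65, so a gene averaging less on 1 side is in it only through the other. Long noncoding RNAs made up 31.6% of the MAF-high and 21.4% of the MAF-low called genes, against 13.5% of the table.

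**Figure D2:**
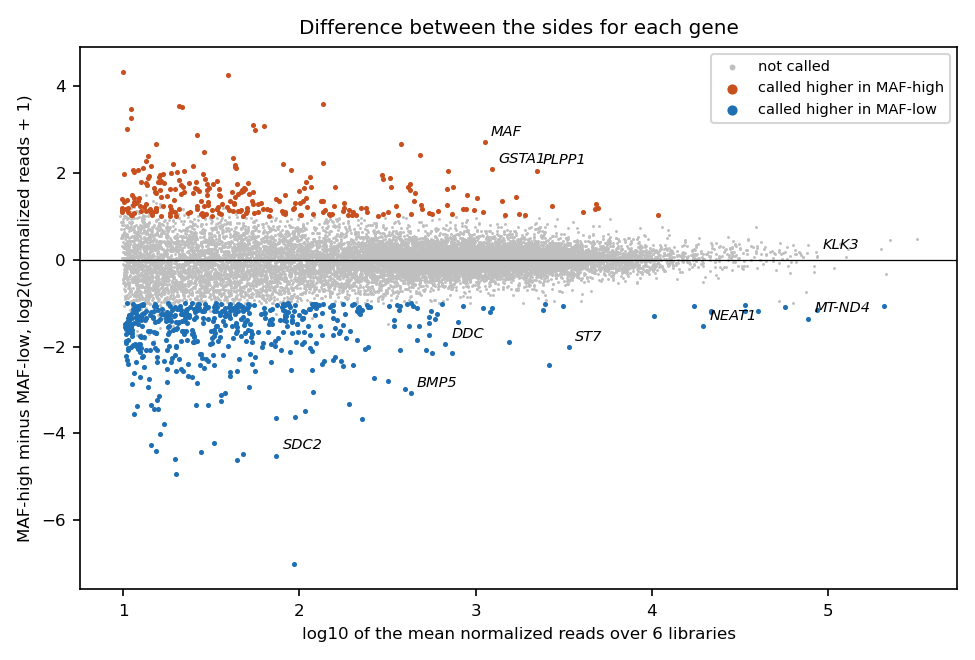
Difference between the sides for each gene, as MAF-high minus MAF-low means of log2(normalized reads + 1), against the log10 of its mean normalized reads over 6 libraries; called genes are orange (266, higher in MAF-high) and blue (510, higher in MAF-low). Most called genes lie at low levels, while NEAT1 and the mitochondrial MT-ND4 lie among abundant genes below 0 and KLK3 lies near 0.

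The 3 libraries of the MAF-low side were closely alike and those of the MAF-high side were not. Over the 11506 genes averaging 100 or more normalized reads, the median standard deviation within a side was 0.08 on the log2 scale for MAF-low and 0.26 for MAF-high. The 3 MAF-low pairs had 0, 3 and 8 such genes at least 2-fold apart, and the 3 MAF-high pairs had 134, 496 and 432. Pairs of libraries from different sides had 197 to 453, a range in which 432 lay and which 496 exceeded. ALDH low 3 stood apart most, with 49 genes at least 2-fold below every other library. Its Pearson correlation across genes with MAF-low libraries reached 0.969, above its 0.961 and 0.964 with ALDH high 2 and ALDH low 1. Genes of a library are not independent replicates, so the correlations are descriptions. Without ALDH low 3 the called counts were 343 and 594.

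Depth moved with the sides. The MAF-low libraries held 25538722, 23817310 and 27042022 recovered reads and the MAF-high libraries 28766265, 30617873 and 27979785, so that each MAF-high library was deeper. The values are scaled for depth, and the part of depth in the split was not tested. Exon length moved with some libraries, in that the shortest 25% of genes had a median centred level of 0.27 and the longest of −0.25 in ALDH low 3. The same values for ALDH high 2 were −0.15 and 0.18. With each library's trend on exon length and GC content removed, 225 and 535 genes were called, and the within-side standard deviations were 0.07 and 0.19. Correlations within the MAF-high side were then 0.985, 0.977 and 0.978, against 0.969 to 0.978 between libraries of different sides. Of the markers of other cells, 2 of 11 endothelial, 3 of 13 fibroblast and 1 of 14 leukocyte genes were in the table. The endothelial genes, VWF and CLDN5, went opposite ways. VWF differed by 0.76 without overlap, and CLDN5 by −0.33 with overlapping sides. Their sum, which is mostly VWF, was 273, 234 and 258 normalized reads on the MAF-low side and 442, 405 and 359 on the MAF-high side. Over the libraries the fibroblast genes summed to 1508 to 2326 and the leukocyte gene, CD68, to 16.4 to 32.0. LOX, a collagen crosslinking enzyme listed with fibroblasts, was the only one of these 6 to be called, with 250.3, 224 and 217 normalized reads against 786, 627 and 604. PECAM1, PTPRC, CD3E, DCN and LUM, defining genes of these other cells, were not among the genes analysed, and the part of other cells in the split was not tested.

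The 30 genes with the widest gap between the sides, 15 in each direction among genes averaging 100 or more normalized reads, were taken, and 29 of them are shown as a heat map. Only genes whose sides do not overlap could be taken, so their separation was fixed by the choice. On the MAF-high side, LINC01297, a long intergenic RNA, had 201, 248 and 313 normalized reads against 20.9, 25.1 and 14.6. EPHA7, a receptor for ephrins, had 768, 751 and 453 against 103, 115 and 82.0. PLA1A, a phospholipase that releases lysophosphatidylserine, had 836, 727 and 886 against 137, 157 and 159. These genes were low on the MAF-low side. SOD3, the extracellular superoxide dismutase, had 236, 156 and 284 against 52.4, 40.0 and 44.9, with ALDH low 1 the lowest of its side. CHRM3, a muscarinic acetylcholine receptor, had 1361, 1152 and 854 against 228, 294 and 278. CYP11A1, the enzyme that cleaves the side chain of cholesterol in the first step of steroid hormone synthesis, had 422, 531 and 554 against 164, 167 and 137. By the choice, no value of these 3 genes on the upper side could come down to the lower side. TRGC1, the T cell receptor gamma constant segment from which prostate cells make an androgen-responsive transcript, differed by 1.74. GBP2, an interferon-induced GTPase, differed by 1.91. RALYL, LRRN1, ZIK1 and ST6GALNAC1, of which the last is a sialyltransferase, differed by 1.86, 1.69, 1.66 and 1.50.

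On the MAF-low side, KIRREL1, a cell adhesion protein of the immunoglobulin superfamily, had 211, 173 and 213 normalized reads against 22.8, 20.8 and 9.64. AUTS2, a regulator of transcription in neurons, had 319, 349.8 and 372 against 46.5, 21.7 and 37.5. CAMK2N1, an inhibitor of the calcium/calmodulin-dependent kinase CaMKII, had 745, 722 and 625 against 77.6, 59.8 and 141. In CAMK2N1 the MAF-high library nearest to the other side was ALDH low 3. TSPAN7, a tetraspanin of the cell surface, had 353, 331 and 331 against 67.5, 48.5 and 71.8. NR2F1, an orphan nuclear receptor, had 308, 328 and 265 against 47.4, 63.2 and 53.6. ST7 was the most abundant of the 15, with 5439.7, 5450.1 and 5313 against 1384, 1211 and 1435, and ST7-AS1 and ST7-OT4 overlap it, so that their reads cannot be told apart where strand was not kept. ADARB2, a relative of the RNA-editing deaminases, differed by −3.05. QSER1, MAB21L4, ARHGEF25, SUSD4 and LGI2 differed by −2.80, −2.43, −2.39, −2.34 and −2.07. AC069228.1, a noncoding gene opposite PPFIA2, had the largest of these differences at −3.67.

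**Figure D3:**
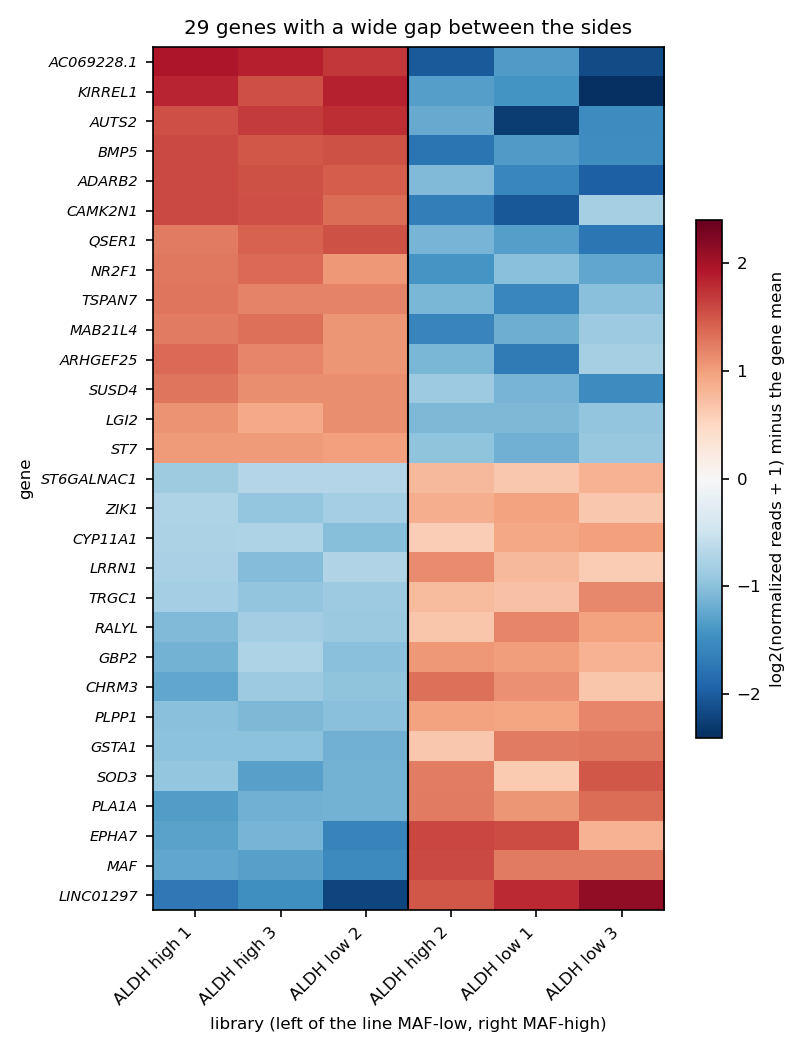
Log2(normalized reads + 1) minus the gene's mean for 29 of the genes with the widest gap, with the 3 MAF-low libraries left of the line and the 3 MAF-high libraries right of it. The 14 upper genes are above their mean in each MAF-low library and the 15 lower genes in each MAF-high library, and the shades vary more among the MAF-high libraries. The genes were chosen for a wide gap between the sides.

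Some genes were read on 1 side and nearly absent from the other. The rule was at most 3 reads in every library of a side and at least 10 in each of the other. Of the 16000 genes, 5 were thus read on the MAF-high side and 12 on the MAF-low side. With a lowest table mean of 9.65 normalized reads, such genes are in the table only through the side where they were read. The counts therefore depend on that filter and describe only the genes that passed it. UGT2B4, a glucuronosyltransferase, had 34, 70 and 28 reads on the MAF-high side and 2, 3 and 2 on the other. PCDH9, a protocadherin, had 76, 85 and 83 reads on the MAF-low side and 3, 2 and 3 on the other. SEMA3E, a semaphorin, had 44, 19 and 52 against 1, 0 and 0, and HGF, the ligand of the MET receptor, had 23, 34 and 22 against 0, 0 and 2. The noncoding LINC01634 had 173, 132 and 230 reads against 2, 0 and 0. No fold is given for these genes, since so few reads carry a wide counting error.

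Genes of known pathways were then read as lists, each described by its members beside the background of 12.0% and 13.6% non-overlapping and 1.66% and 3.19% called genes. Over all genes the median difference was 0.01. Cholesterol synthesis genes were above 0 in 25 of 25 members, 19 of them higher on the MAF-high side without overlap, with a median of 0.59 and none at 2-fold. HMGCS1, which makes the precursor of mevalonate, had 1559, 1487 and 1571 normalized reads against 2935, 3625 and 2613. INSIG1, the sterol-induced regulator that retains SREBP in the endoplasmic reticulum, had 3983, 4020.1 and 3766 against 6475, 8828 and 7463, and LSS, lanosterol synthase, had 1524, 1623 and 1539 against 2843, 2691 and 2739. All 3 MAF-low libraries lay within a narrow band and all 3 MAF-high libraries above it. FDFT1, squalene synthase, differed by 0.69 and SQLE, squalene epoxidase, by 0.57. Of 26 fatty acid synthesis and lipid droplet genes, 10 were higher on the MAF-high side without overlap and 1 lower, with a median of 0.20 that was 0.34 without ALDH low 3.

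Androgen-induced genes leaned the same way but not uniformly. Of 36 members, 14 were higher on the MAF-high side without overlap, 2 were lower, and the median was 0.25, or 0.40 without ALDH low 3. The list holds MAF and PLPP1, which define or mark the split. KCNN2, a calcium-activated potassium channel, had 536, 518 and 599 normalized reads against 1736, 1274 and 1473. PMEPA1, a membrane protein that dampens TGF-β signaling, had 1707, 1880.3 and 1891 against 3266, 2808 and 3268, and SORD, sorbitol dehydrogenase, had 8411, 8272 and 8797 against 14398, 14944 and 13685. The kallikreins KLK2 and KLK4, also induced by androgen, were lower on the MAF-high side, at −0.42 and −0.41. Of 19 genes of androgen glucuronidation and steroid metabolism, 7 were higher without overlap and 5 were called. UGT2B28, an enzyme that glucuronidates androgens, differed by 1.57, and UGT2B11 by 1.36. These genes are near-identical copies, between which the counting of uniquely placed reads can lose or split reads. HSD17B6, which oxidises androstanediol, was lower at −1.05.

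Histone genes formed another group on the MAF-high side. Of 23 in the table, 14 were higher without overlap and 8 were called, with a median of 0.83 and none lower without overlap. HIST1H1C, a linker histone, had 352, 334 and 302 normalized reads against 828, 945 and 1349, and HIST2H2BE had 265, 278 and 216 against 755, 570.0 and 617. Most histone messages lack a poly(A) tail, and the libraries were made from poly(A) RNA, so that these values cover only the tailed fraction. Of 39 genes of the unfolded protein response and ATF4, 16 were higher without overlap, none was lower, and the median was 0.17.

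Cell cycle genes lay higher on the MAF-low side. Of 53 DNA replication and E2F genes, 28 were higher there without overlap and 0 on the MAF-high side, with a median of −0.28 and none called. Under spike-in scaling, which moved the median of all genes to 0.19, the median of the list was −0.09. E2F8, a late-acting E2F factor, had 291, 344 and 321 normalized reads against 219, 187 and 168. Of 44 mitotic genes, 15 were higher on the MAF-low side without overlap. AURKB, a kinase of the chromosomal passenger complex, had 2738, 2649.6 and 2696 against 1525, 1323 and 2278. These differences were small beside those of the widest-gap genes, but most members shared the sign: 50 of the 53 replication genes were below 0.

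Transcripts of the protein-coding genes of mitochondrial DNA were also higher on the MAF-low side. Of 13 genes, 12 did not overlap and 9 were called, with a median of −1.07. MT-ND4, a subunit of respiratory complex I, had 113141, 112454 and 100787 normalized reads against 50786, 26102 and 57443, with ALDH low 1 the lowest library. Mitochondrial genes took 4.90%, 4.90% and 4.55% of the reads on the MAF-low side and 2.89%, 2.01% and 2.996% on the MAF-high side. The 63 nuclear genes of oxidative phosphorylation had a median of 0.00, which was 0.16 without ALDH high 2 and −0.16 without ALDH low 3, with 2 higher on the MAF-low side without overlap and none on the other. Of 36 proteasome subunits, 0 were non-overlapping in either direction. Ribosomal protein genes had a median of 0.22, but 2 of 74 did not overlap, and their centred levels on the MAF-high side ran from −0.25 in ALDH high 2 to 0.44 in ALDH low 3. Their median was 0.39 without ALDH high 2 and 0.044 without ALDH low 3. Leaving the mitochondrial genes out before scaling to total reads gave 221 and 568 called genes, and the part of the mitochondrial share in the other differences was not tested.

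Signaling and lineage genes were mixed in direction. Of 7 neuroendocrine markers in the table, 5 were higher on the MAF-low side without overlap and 3 called, namely DDC, SYT4 and NCAM1. DDC is itself a marker of the split. SYT4 and NCAM1 averaged 5.62 and 4.73 normalized reads on the MAF-high side, under the table's lowest mean of 9.65. They are thus in the table only through the MAF-low side, which fixed their direction in advance. SYT4, a synaptotagmin of vesicle traffic, had 28.3, 37.7 and 44.9 normalized reads against 4.56, 6.93 and 5.36, and NCAM1, a neural adhesion molecule, differed by −2.09. ENO2 differed by −0.99 and SYP, synaptophysin, by −0.55. Of the 28 markers listed, 21 were not among the genes analysed, chromogranin A and INSM1 among them. Of 24 Wnt genes, 11 were higher on the MAF-low side without overlap and 3 on the other, with a median of −0.22, which was −0.03 under spike-in scaling and −0.09 without ALDH low 3. TCF7 and LEF1, transcription factors at Wnt targets, differed by −1.77 and −1.08, and the receptor ROR2 by −1.95. CTNNB1, β-catenin, was higher on the MAF-high side at 0.23. TCF7 had only 3.47 to 44.0 normalized reads over the libraries.

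BMP genes that did not overlap were mostly higher on the MAF-low side. Of 25, 7 were higher on the MAF-low side without overlap, 1 on the MAF-high side, and 17 overlapped. Over all 16000 genes the same counts were 2175, 1919 and 11906. The list holds BMP5, a marker of the split. Among ligands, BMP5 and BMP6 were called on the MAF-low side, at −3.07 and −1.08, and BMP4 had −0.62 without overlap. Among inhibitors and targets, SMAD6, BAMBI, CHRD and MSX2 were higher on the MAF-low side without overlap, at −0.51, −0.56, −0.77 and −0.91. ID2, another BMP target, was higher on the MAF-high side at 0.29, and the median of the 25 genes was 0.02, and −0.04 without ALDH high 2. GLI1, a factor and target of the Hedgehog pathway, had 172, 149.7 and 176 against 76.6, 74.5 and 94.3. The Hedgehog transducer SMO differed by −1.06, at only 5.20 to 22.9 normalized reads over the libraries. The median of the 10 Hedgehog genes was −0.13 and turned to 0.012 without ALDH low 3. Under spike-in scaling it was 0.060, below the 0.19 of all genes. Of 19 prostate lineage transcription factors, 3 were higher on the MAF-high side and 6 on the MAF-low side without overlap, with a median of −0.02. The 4 called genes, all on the MAF-low side, were SOX9 (−2.33), HOXD13 (−3.36), NR2F1 and ETV5 (−1.37).

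Genes of the cell surface and matrix went both ways. SDC2, a heparan sulfate proteoglycan, had 135, 146 and 146 normalized reads against 7.30, 6.06 and 3.21, the widest difference among the listed genes. LAMA1 and LAMA3, laminin chains, were higher on the MAF-high side, at 1.62 and 1.18, and THBS1, thrombospondin, at 1.17. NCAM2 had 366, 333 and 339 against 1070.2, 1476 and 857. In the Eph family, EFNA5, an ephrin ligand, was called in the direction opposite to EPHA7, at −1.15. KRT14, a keratin of basal cells, was called on the MAF-high side at 1.25, with 4 of 11 basal markers higher there without overlap, although the median of the list was −0.012 without ALDH high 2. The nuclear RNA MALAT1 was also called on the MAF-low side, at −1.20, but its sides nearly met. It had 37308, 33588 and 19483 normalized reads against 12635, 8674 and 18422. Of 12 aldehyde dehydrogenase genes, ALDH1L1, a folate enzyme at only 4.19 to 19.1 normalized reads, was called on the MAF-high side at 1.20. Without overlap, 3 were higher there and 2 on the MAF-low side.

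**Figure D4:**
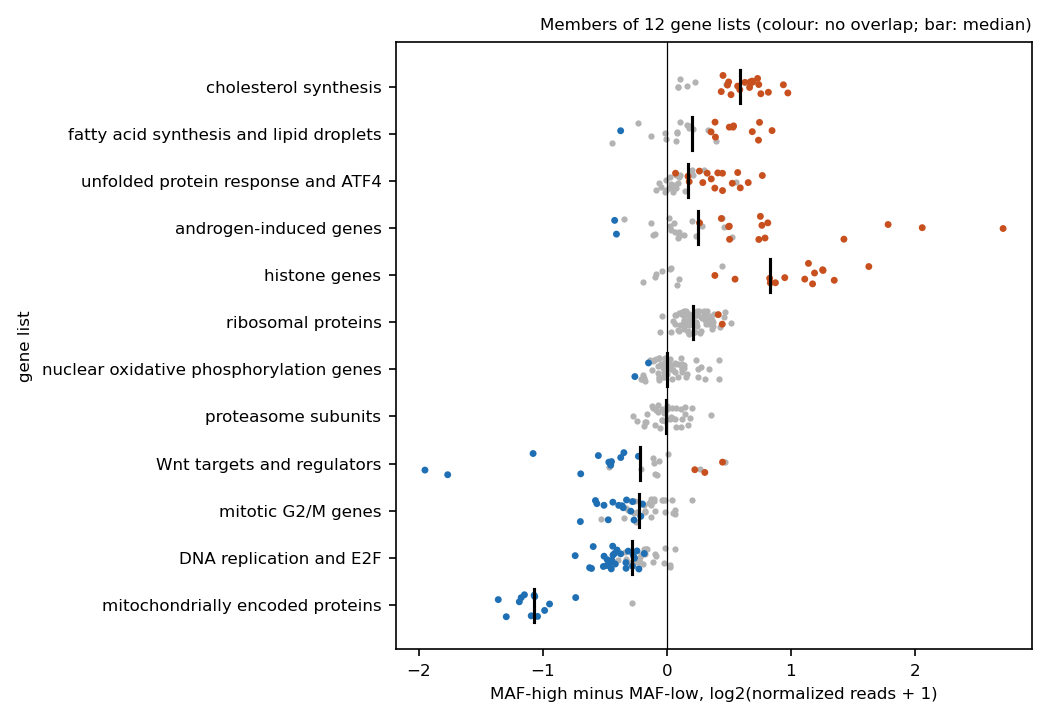
Difference of each member of 12 gene lists, MAF-high minus MAF-low on the log2 scale; orange and blue points do not overlap between the sides, grey ones do, and bars are medians. Cholesterol synthesis (median 0.59) and histone genes (0.83) lie to the right, and DNA replication (−0.28) and mitochondrially encoded genes (−1.07) to the left.

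Differences were spread unevenly over the chromosomes. Among genes averaging 100 or more normalized reads, chromosome 14 had a median difference of 0.18 over 387 genes, of which 74.9% were above 0, while the medians of the other chromosomes lay between −0.09 and 0.05. On chromosome 14, 27.4% of genes were higher on the MAF-high side without overlap and 6.98% on the MAF-low side, against 12.5% and 11.8% over all chromosomes at that level. It held a stretch of 240 genes, chr14:50108632-103928269 (GRCh38), where the running median of 41 genes was at least 0.15 throughout. Its median was 0.23, a 1.17-fold difference, and 197 genes were above 0. Centred levels over the stretch were −0.12, −0.13 and −0.10 on the MAF-low side and 0.17, 0.19 and 0.01 on the MAF-high side, with ALDH low 3 nearest to 0. With the trend on exon length and GC content removed they were −0.10, −0.10 and −0.12 against 0.11, 0.12 and 0.11. DNA copy number was not analysed here. Shorter stretches higher on the MAF-high side lay at chr5:1801400-34244796 (median 0.28) and chr19:56132599-57578927 (0.23). Stretches lower there lay at chr13:34942287-52159861 (−0.23), chr4:1211448-4290169 (−0.23, or −0.15 without ALDH low 1), chr5:139408588-149551552 (−0.20) and chr5:174724533-177351852 (−0.19, or −0.30 without ALDH low 3). Not every MAF-high library followed each stretch. Centred levels in ALDH low 3 were −0.05 on the chr19 stretch, 0.04 on the chr4 stretch and −0.005 on chr5:139408588-149551552. In ALDH low 1 the level on the chr13 stretch was −0.007. With the trend on exon length and GC content removed, these 4 values were 0.18, −0.03, −0.12 and −0.13.

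**Figure D5:**
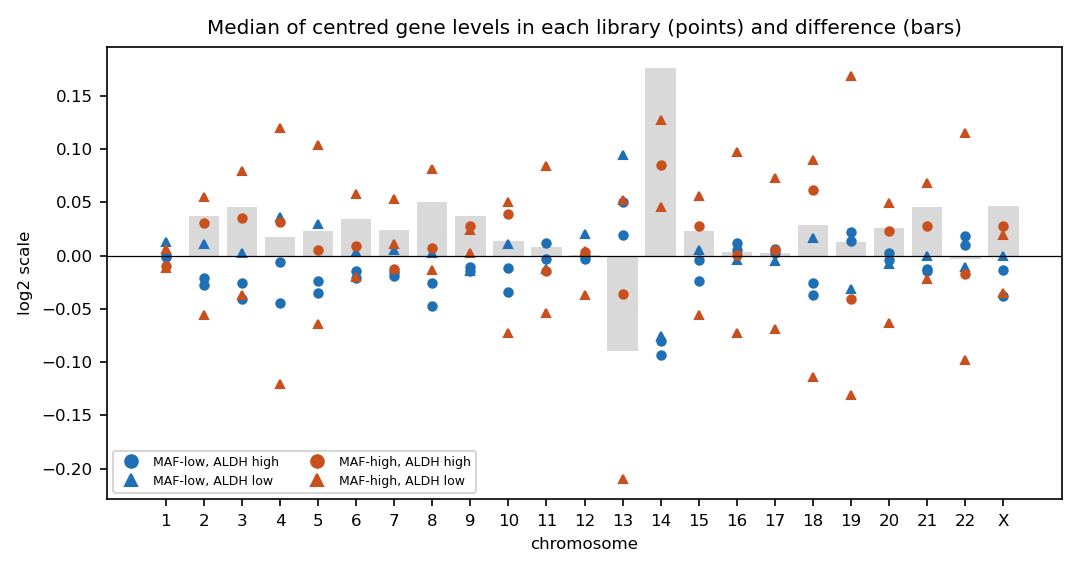
Median centred log2 level of the genes of each chromosome in each library (points; circles ALDH high, triangles ALDH low, blue MAF-low, orange MAF-high) and the median difference between the sides (grey bars). Chromosome 14 has the tallest bar, at 0.18, with all 3 MAF-high points above 0 and all 3 MAF-low points below it, and chromosome 13 the lowest, at −0.09.

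Some called genes lay near each other. Groups of at least 3 called genes, each within 300000 bases of the next and in the same direction, numbered 23. Genes that were not called could lie between the members. Of the groups, 8 were higher on the MAF-high side and 15 on the MAF-low side. Whether there were more such groups than gene density would give was not tested. The MAF-high groups included the glucuronosyltransferases UGT2B11, UGT2B28 and UGT2B4 on chromosome 4, the histones HIST1H1C, HIST1H2BC, HIST1H2AC and HIST1H3E on chromosome 6, and ARG2, RDH11 and RDH12 on chromosome 14. ARG2, the mitochondrial arginase, had 699.6, 806 and 863 normalized reads against 1977, 2033 and 2043, and RDH11, a retinol dehydrogenase induced by androgen in prostate cells, had 6853, 6981 and 7589 against 14909, 13632 and 15184. The largest MAF-low groups held 5 genes each: ST7, ST7-AS1, ST7-OT4, ASZ1 and CTTNBP2 on chromosome 7, and HCP5, MPIG6B, MSH5, SAPCD1 and VWA7 on chromosome 6. MSH5 and SAPCD1 are overlapped on the same strand by a readthrough gene, so that their reads cannot be told apart.

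The comparison that the labels name gave no called gene. With limma on log2(normalized reads + 1) and Benjamini-Hochberg adjustment, 0 of 16000 genes (0%) differed between ALDH high and ALDH low at an adjusted p under 0.05, the smallest adjusted p was 0.984, and 338 genes had an unadjusted p under 0.05. The quasi-likelihood test of edgeR and DESeq2 on the recovered reads also called 0, with 357 and 355 genes at an unadjusted p under 0.05. With the side of the split as a term in the limma fit the count was again 0, with 270 unadjusted. Leaving out ALDH low 2, the only ALDH low library on the MAF-low side, raised the unadjusted count to 1697 with 0 called. For MAF the labelled difference, ALDH high minus ALDH low, was −0.64 with limma (adjusted p = 0.984), and 0.30 once the side was a term. For BMP5 the labelled difference was 0.89 (limma adjusted p = 0.984) and −0.15 with the side as a term. MAF set the sides and BMP5 marks them, so the side term takes up most of their variation in advance. The fit with that term is therefore no test of the label for these genes. Each labelled group holds libraries of both sides, 2 to 1 in opposite proportions, so its spread takes in the difference between the sides.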

How the data were processed

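RNA of 6 libraries was measured. Per the submitters' processing notes, DESeq2, featureCounts (Subread 1.5.2), STAR 2.5.2b and Trimmomatic 0.36 were used with GRCh38, and no annotation release is named. The authors deposited normalized signal, each gene's read count divided by a size factor per library, with their own log2 fold change and p-value for ALDH low over high; in the authors' deposited table the smallest adjusted p is 0.998. Whole reads were recovered within 0.02 of a read for at least 99.99% of values. The table's lowest mean was 9.65 normalized reads, so lower genes were filtered upstream. Of 16046 rows, 46 were spike-ins, 21 gene names had become dates and 45 were blank. Names and coordinates came from GENCODE 29, matched for 15939 of 16000 genes.

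Libraries were put on a side by MAF, and genes compared by mean log2(normalized reads + 1), which understates differences of low genes. Members, lists (44) and rules were chosen with earlier results of these data known. Genes named are the markers, KLK3, the 15 widest gaps in each direction at a mean of at least 100, and up to 3 members per list; others were chosen after their values were seen, and some genes that the rule names are not reported here. The labelled groups were tested with limma 3.58.1 (trend, all genes), with edgeR 4.0.16 and DESeq2 1.42.0 as alternatives, checked on simulated data; the design had left the unit open between counts and normalized values. No label says that samples are separate cultures, so the spread behind a p-value may be technical. Pairs of libraries differed by more than counting noise, with a chi-square per gene of at least 5.31.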

Additional observations from a re-analysis of the deposited data

Results flagged for a closer look

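The ERCC spike-in RNAs, which are not among the genes compared and enter only as an alternative scaling, took 0.487% of all recovered reads. They are synthetic RNAs added in a fixed amount, and they were flagged as signal outside the main measurement. Their share was 0.630%, 0.403% and 0.556% in the MAF-low libraries and 0.399%, 0.491% and 0.448% in the MAF-high libraries, in the order used above, so that the 2 sides overlapped.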

How the results depend on the processing

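Of the other settings for counts of genes, 53 stayed within 1.5 times the reported count and 15 did not. The 53 include every setting of the test of ALDH high against ALDH low, which called 0 genes throughout. All 15 that moved were counts between the sides. Genes called higher on the MAF-high side numbered 266, and 81 with averages of 100 or more normalized reads, 163 with a pseudocount of 10, 715 at 1.5-fold, 38 at 4-fold, and 286 to 343 with 1 library left out. Genes called higher on the MAF-low side numbered 510, and 321 under spike-in scaling, 120 with a mean of at least 100, 300 with a pseudocount of 10, 1102 at 1.5-fold, 116 at 4-fold, and 508 to 643 with 1 library left out. Non-overlapping genes numbered 1919 on the MAF-high side, and 2286 to 3860 with 1 library left out (3223 without ALDH high 2 and 3860 without ALDH low 3). On the MAF-low side they numbered 2175, and 668 under spike-in scaling, 1371 with a mean of at least 100, and 2506 to 3889 with 1 library left out (3328 without ALDH high 2 and 3889 without ALDH low 3), where fewer libraries make non-overlap easier.

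Of the lists with a median beyond 0.1 either way, 6 changed sign under some setting, and 14 others with medians nearer 0 crossed it. Spike-in scaling moved the median of all genes to 0.19, so lists that turned positive under it stayed below that value. There the Hedgehog median was 0.0604, that of MHC class I 0.0602, of paraspeckle genes 0.0886 and of androgen-independent line markers 0.0681. With 1 library left out, the median ran from −0.291 to 0.0119 for Hedgehog (highest without ALDH low 3), from −0.142 to 0.0323 for paraspeckle genes and from −0.172 to 0.0597 for androgen-independent line markers (both highest without ALDH low 1). It ran from −0.0122 to 0.380 for basal markers (lowest without ALDH high 2) and from −0.0140 to 0.247 for glutathione transferases (lowest without ALDH low 3). The cause was not tested. The fit with trend on length and GC removed was chosen after seeing the data.

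With the replicate number as a block, 0 genes differed between ALDH high and ALDH low in limma, with 226 at an unadjusted p under 0.05. The deviations of same-numbered libraries correlated at −0.46, −0.43 and 0.14, and the labels name no pairing. Each number holds 1 library of either side, which itself lowers these values, so they do not show whether the numbers pair the samples.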

Other observations

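Further lists held at most 3 called genes on a side, which in the shorter lists is a larger share than over all genes. Over all genes, 1.66% were called on the MAF-high and 3.19% on the MAF-low side, and 12.0% and 13.6% did not overlap. Interferon-stimulated genes went both ways: of 35, 9 were higher on the MAF-high side without overlap and 4 on the MAF-low side. HERC5, a ligase for the ubiquitin-like ISG15, differed by 1.75, while OASL and EPSTI1 differed by −1.30 and −1.17. Among p53 targets, 6 of 28 were higher on the MAF-high side without overlap and 1 on the other. Of 30 immediate early and stress genes, FOSL1 and NR4A2 were called on the MAF-low side, at −1.37 and −1.04. The sides nearly met in FOSL1, at 20.50 normalized reads in ALDH low 2 and 20.35 in ALDH low 3. Of 15 stem and progenitor markers, 3 were called on the MAF-low side, namely CD24, NR2F1 and SOX9, and 0 on the other, while without overlap alone the counts were 6 and 5.

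Of 12 mesenchymal markers, 7 were below 0 with a list median of −0.31. Without overlap, 4 were higher on the MAF-high side and 2 on the MAF-low side, and S100A4 and SPARC were called on the MAF-high side, at 1.07 and 1.75. ANXA1, an annexin, and CXCL8, the chemokine interleukin-8, are markers of androgen-independent prostate lines and were called on the MAF-high side, at 2.87 and 3.12. Of the 6 such markers in the table the other 4 were below 0, 1 of them without overlap, and the median was −0.12. ANXA1 had only 2.29 to 61.5 normalized reads over the libraries. GSTA2, a near-identical copy of GSTA1, differed by 2.99, and the 2 genes can share reads. HLA-G, at only 0.87 to 18.3 normalized reads, differed by −1.93, and the Notch regulator DTX4 by −1.67. The mismatch repair family member MSH5, whose reads cannot be told apart from those of the overlapping SAPCD1 readthrough gene, differed by −1.12. HLA-G, DTX4 and MSH5 were all called on the MAF-low side. In the MAF family of 7 genes only MAF was called, which the rule that set the sides fixed in advance. Of its other members, 1 did not overlap and was higher on the MAF-low side. No gene was called among NRF2 and antioxidant genes, glycolysis and hypoxia, SR and hnRNP splicing factors, ABC transporters, metallothioneins and zinc transporters, or epithelial junctions and polarity. Of 10 androgen-repressed genes, DDC was called.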
